A study of Rattus norvegicus with 2 samples.

Results

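The chloride and fluid secretion genes were Cftr, Slc12a2, Kcnn4, Kcnq1, P2ry2, Slc26a6, Clcn3 and Clcn5, chosen by name because secretion of fluid into cysts is a proposed drug target in polycystic kidney disease. Their probes were the non-control spots of the scanner files whose RefSeq accession mapped to 1 of these genes. Of the 8 genes, 7 had a probe, with 8 probes and 17 spots in all, among 13435 genes that could be named on the array. Slc26a6 was matched by no probe and was not analysed here. Of the 7 genes, 6 were measured on both arrays, among 10484 genes measured in the series, and Cftr was at the limit of detection.

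Kidneys came from female PCK rats, a strain that models recessive polycystic kidney disease through a spontaneous Pkhd1 mutation. Both groups carried that mutation, so neither is a kidney without cysts. The pioglitazone group was gavaged every day with 10 mg/kg of this PPAR-gamma agonist, starting at 4 and ending at 20 weeks of age, and the vehicle group was given 0.5% DMSO in the same way. Normal +/+ rats were not analysed here. RNA was pooled within each group, from 5 females by the design text or from 3 rats by the labelling text, and each pool was hybridised to 1 array of the same slide.

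Cyst epithelium secretes chloride, and sodium and water follow into the lumen. In the general scheme the cotransporter NKCC1 (Slc12a2) loads chloride across the basolateral membrane, the cAMP-regulated channel CFTR (Cftr) releases it across the apical membrane, and potassium channels such as KCa3.1 (Kcnn4) and KvLQT1 (Kcnq1) recycle potassium and hold the membrane voltage that drives exit. Extracellular ATP can stimulate chloride secretion through the calcium-coupled receptor P2Y2 (P2ry2), and the exchanger Slc26a6 carries chloride against bicarbonate, oxalate or formate. ClC-3 (Clcn3) and ClC-5 (Clcn5) are chloride/proton exchangers of endosomes. Loss of ClC-5 causes Dent disease, with impaired endocytosis in the proximal tubule.

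Because pioglitazone acts through a nuclear receptor, the promoter windows of the genes are shown for 3 of them: P2ry2, which had the lowest difference of the measured genes, Slc12a2, the gene with 2 probes, and Clcn3, which had the difference nearest 0 after scaling. They are RefSeq windows of the GRCr8 build, from 250 bases before to 50 bases after a gene's start, printed 5′ to 3′ on the gene's own strand. Capitals mark the letters GGGCGG, a GC box, or TGACGTCA, a cAMP response element, on either strand. P2ry2 lies at chr1:164779439-164779738 on the minus strand, Slc12a2 at chr18:53546083-53546382 on the plus strand and the first of 2 windows of Clcn3 at chr16:34137754-34138053 on the plus strand.
P2ry2: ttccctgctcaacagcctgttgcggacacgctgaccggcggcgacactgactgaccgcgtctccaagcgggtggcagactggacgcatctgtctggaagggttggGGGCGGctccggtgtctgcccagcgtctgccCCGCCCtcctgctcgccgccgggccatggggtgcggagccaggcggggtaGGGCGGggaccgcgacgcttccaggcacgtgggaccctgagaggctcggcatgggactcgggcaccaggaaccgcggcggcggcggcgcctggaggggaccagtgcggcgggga
Slc12a2: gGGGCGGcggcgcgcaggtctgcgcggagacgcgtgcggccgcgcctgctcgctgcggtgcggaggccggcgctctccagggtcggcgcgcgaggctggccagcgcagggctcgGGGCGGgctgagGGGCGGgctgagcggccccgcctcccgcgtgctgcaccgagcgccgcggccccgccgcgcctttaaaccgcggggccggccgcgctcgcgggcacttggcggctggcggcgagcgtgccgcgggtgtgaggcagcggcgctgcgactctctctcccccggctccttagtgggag
Clcn3: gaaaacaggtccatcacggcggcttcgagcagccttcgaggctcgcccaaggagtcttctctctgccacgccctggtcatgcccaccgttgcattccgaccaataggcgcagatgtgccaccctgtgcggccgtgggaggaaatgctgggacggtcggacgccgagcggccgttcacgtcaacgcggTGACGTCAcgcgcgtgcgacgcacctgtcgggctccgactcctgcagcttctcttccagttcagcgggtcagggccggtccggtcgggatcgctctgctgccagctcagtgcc

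The P2ry2 and Slc12a2 windows each held 3 GC boxes and were rich in G and C, at 73.0% and 80.7%, where the median over 33469 promoter windows was 51.7%. The Clcn3 window shown held no GC box and 1 cAMP response element, and the second window of Clcn3 held neither. Of all windows, 33.1% held a GC box and 1.83% held TGACGTCA. The table had windows for 5 of the 8 genes, 7 windows in all, since Clcn3 and Clcn5 had 2 each. None of the 7 held AGGTCA, the half-site of the element that PPAR-gamma binds with its partner RXR, on either strand, where 16.2% of all windows did. These matches describe letters in these windows only.

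Across the series, 73.1% of non-control spots on the pioglitazone array and 71.8% on the vehicle array were well above background, and 0 spots were saturated. Differences are pioglitazone minus vehicle on the log2 scale after each array was scaled to its 75th percentile, which removed a shift of 0.08. The technical error joins the error estimates that the software gave for each array's spot, had a median of 0.20 over measured genes and holds no spread between animals. It is not the scatter seen between spots. For 50 probes printed several times, with mean signals of 100 to 500, the SD of the difference over spots had a median of 0.08. Such spots share the same RNA pools, so that SD holds no spread between animals either. With 1 array per group no difference has a replicate check, and none was tested. Markers of the nephron were well above background on both arrays in all 8 of 8 proximal tubule genes, 4 of 4 thick ascending limb genes with a probe, 5 of 5 principal cell genes, 6 of 6 intercalated cell genes and 4 of 4 podocyte genes.

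None of the 6 measured secretion genes differed by 1.5-fold. Of all measured genes, 2.51% differed by 1.5-fold and by over 2 times their technical error (0.754% higher and 1.76% lower with pioglitazone). By 1.5-fold alone the share was 2.71% (0.839% higher and 1.87% lower), and at 2-fold it was 0.458% (0.162% higher and 0.296% lower). The genes went both ways: Kcnq1, Clcn5 and Clcn3 were positive and Slc12a2, Kcnn4 and P2ry2 were negative. Their median was -0.04, against 0.03 over all measured genes, and the median's sign turned to 0.01 with median scaling, to 0.04 without scaling and to 0.02 with no filter on dim probes. No member exceeded 2 times its technical error, which 5.61% of all measured genes did. At this share, 0 of 6 genes is close to the background, and nothing is read from it about secretion genes as a group. In bulk kidney RNA, fewer cells of a type and less RNA per cell cannot be told apart.

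**Figure D1:**
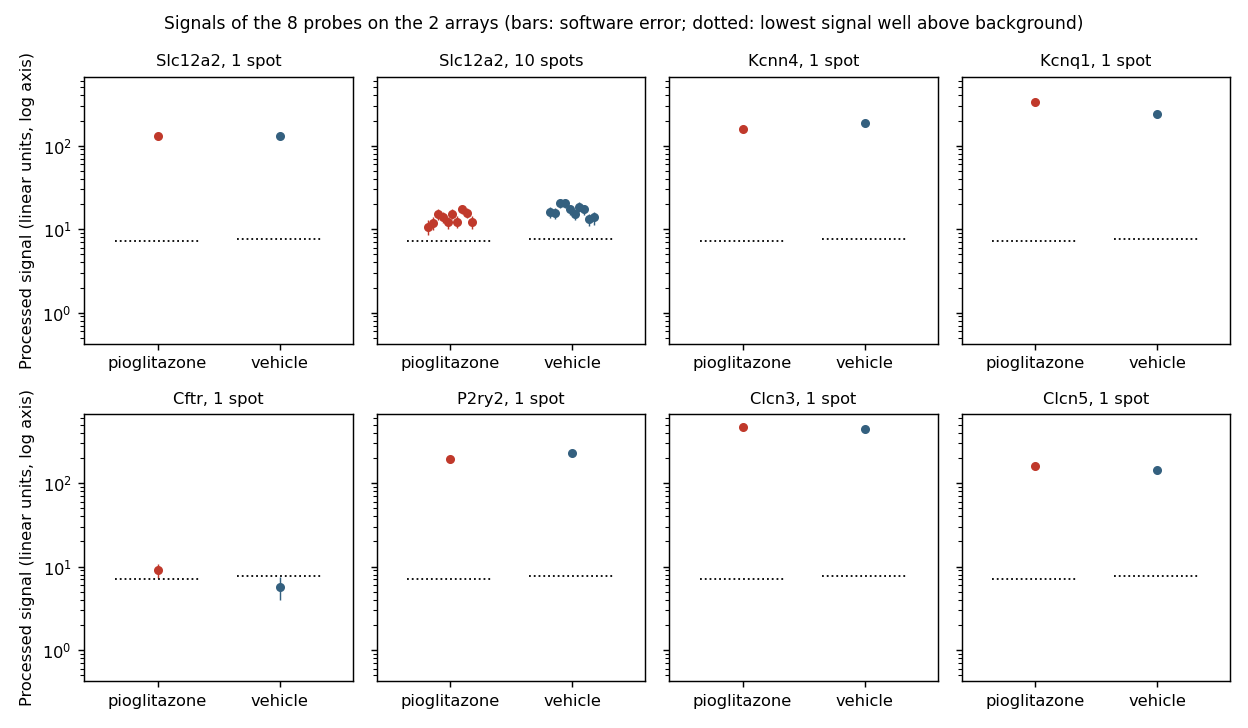
Processed signal (linear units on a log axis) of the 8 probes on the pioglitazone array (left, red) and the vehicle array (right, blue), with 1 point per spot, bars of the software's error and a dotted line at the lowest signal well above background on each array (7.16 and 7.66). Cftr straddles the line, the Slc12a2 probe with 10 spots lies just above it, and the other 6 probes lie far above it.

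Of the basolateral entry step, NKCC1 encoded by Slc12a2, there were 2 probes on the array. The brighter one, A_44_P134405, gave signals of 130 with pioglitazone and 132 with vehicle, from 1 spot each. The signals were nearly equal, and the scaled difference was -0.10, with a technical error of 0.21. Across 6 scalings that value ran from -0.12 to -0.02 and stayed negative.

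The dimmer Slc12a2 probe, A_44_P163408, was printed 10 times on each array. Its spots had a lowest signal of 10.6, a median of 13.15 and a highest of 17.3 with pioglitazone, against 13.1, 16.6 and 20.4 with vehicle. The ranges overlapped, and every one of the 10 spots was well above background on both arrays, although the mean signals were only 1.91 and 2.19 times the lowest signal so classed on the pioglitazone and vehicle arrays. As deposited, the pioglitazone spot was dimmer than the vehicle spot at 7 of the 10 positions, equal at 1 and brighter at 2.

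After scaling, 9 of the 10 spots were negative, with a mean difference of -0.38 ± 0.30 (SD over 10 spots of the same RNA pools) and a range from -0.68 to 0.19. Only 4 spots were past 1.5-fold. The technical error of a single spot was 0.31. The mean was -0.15 with normexp correction, with 10 of 10 spots negative, and -0.30 without scaling, with 7 of 10 negative. Among 18 probes with at least 8 spots and a mean signal between 10 and 20, the means ran from -0.38 to 0.41 with an SD of 0.22, and that of Slc12a2 was the lowest, followed by -0.29. Both probes of the gene were negative, but the brighter one showed about no difference and the dimmer one a 1.30-fold higher signal in vehicle.

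**Figure D2:**
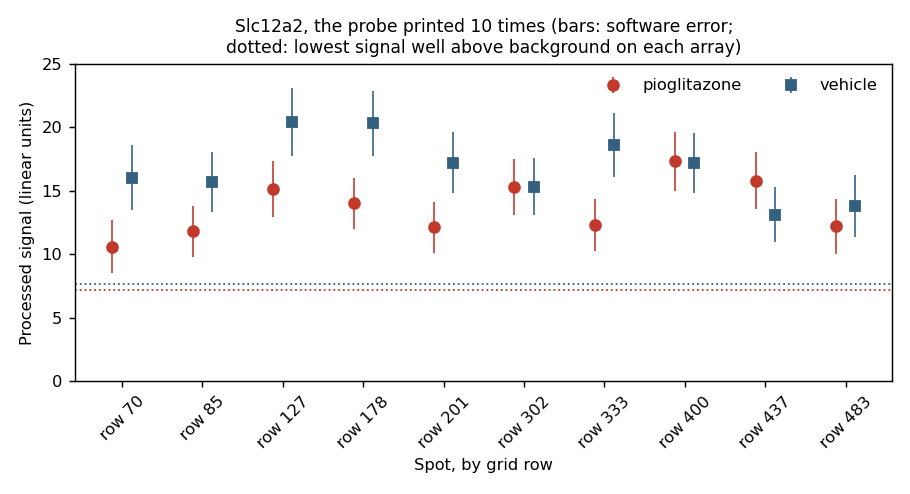
Processed signal (linear units) of the Slc12a2 probe printed 10 times, by the grid row of the spot, with pioglitazone as red circles, vehicle as blue squares, bars of the software's error and dotted lines at the lowest signal well above background on each array. The pioglitazone spot is visibly lower at rows 70, 85, 127, 178, 201 and 333 and close to or above the vehicle spot at rows 302, 400 and 437.

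Potassium exit was represented by Kcnn4 and Kcnq1, whose differences had opposite signs. Kcnq1, the pore of a voltage-gated channel that in mouse sits in the brush border of the proximal tubule, gave signals of 335 with pioglitazone and 239 with vehicle. Its difference of 0.40, 1.32-fold, was the largest of the 6 measured genes, and 7.59% of all measured genes differed by at least as much in either direction. With the sign counted, 97.3% of measured genes were lower. Among 7757 spots with signals between 100 and 500, differences had an SD of 0.22. The Kcnq1 difference lay at 1.98 times its technical error of 0.20. It exceeded 2 times the error (0.41) under 2 of 6 scalings, over which it ran from 0.39 to 0.49. Kcnq1 was read from 1 spot in the third row of the grid, at the edge of the array, where the first of 10 bands of rows had a median difference of 0.004.

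Kcnn4, an intermediate-conductance calcium-activated potassium channel also known from red cells, T cells and macrophages, gave signals of 160 with pioglitazone and 185 with vehicle. The difference was -0.29, 1.22-fold higher in vehicle, within 2 times its error of 0.21, and 15.9% of all measured genes differed by at least as much. Markers of these cell types were negative too. All 6 T cell markers were negative, with a median of -0.31, a summed scaled signal of 2.86 with pioglitazone and 3.48 with vehicle (in multiples of the 75th percentile), and 1 past 1.5-fold, the adhesion molecule Cd2. All 6 macrophage markers were negative, with a median of -0.25, sums of 11.7 and 14.5 on the pioglitazone and vehicle arrays, and 1 past 1.5-fold, the integrin Itgam, a call lost with normexp correction. All 4 erythroid markers were negative as well, with a median of -0.51, sums of 15.04 and 18.05, and 1 past 1.5-fold, the haemoglobin chaperone Ahsp. The brightest of these 4, Slc4a1, was also in the intercalated cell list. It was at -0.03, with signals of 3940 with pioglitazone and 3810 with vehicle. All 16 markers were well above background on both arrays, but 2 of those past 1.5-fold were dim. Cd2 gave 12.7 with pioglitazone and 22 with vehicle, and Itgam gave 15.1 and 24.3. Negative medians were not confined to these cell types. All 4 measured urothelium markers were negative, with a median of -0.27. Of 5 principal cell markers 3 were negative and 2 positive, with a median of -0.08. Among them Aqp2 was at -0.34, Aqp3 at -0.29 and Scnn1g at 0.19. The part of any of these markers in the Kcnn4 value was not tested.

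The partners of these channels gave small values. Kcne1, the beta subunit that slows the KCNQ1 current, had signals of 500 with pioglitazone and 415 with vehicle, a difference of 0.19. Kcne3, a subunit that holds KCNQ1 open in secretory epithelia, had 51.1 and 59.5, a difference of -0.30. Kcne2 was not well above background on either array. Of 17 measured genes in the potassium channel list, 0 were past 1.5-fold in either direction and the median was 0.05, with Kcnmb4, a subunit of the large-conductance calcium-activated channel, at -0.34 and the inward rectifier Kcnj16 at 0.32 as the largest values. The large-conductance pore gene Kcnma1 was well above background with pioglitazone alone, at a signal of 7.86 against 6.32 with vehicle, too close to the limit for a bound above 1.

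Chloride exit through CFTR was near background. The single spot for Cftr gave a signal of 9.09 with pioglitazone, 1.27 times the lowest signal well above background on that array, against 5.68 with vehicle, which was 0.742 times that limit. The spot was thus well above background with pioglitazone and not well above background with vehicle. Set against the detection limit of the vehicle array after scaling, the pioglitazone signal was at least 1.12-fold higher, a bound that takes no account of spot error. The measured values differed by 0.60 with a technical error of 0.52, within 2 times that error, so equal levels lie within the error as well.

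Signals of this size lie close to background. The software called the Cftr spot positive and significant against background on both arrays, but well above background with pioglitazone alone. Of 513 spots with signals between 8.5 and 9.5 on the pioglitazone array, 82.5% were well above background. On the vehicle array 747 spots lay between 5.2 and 6.2. Their share of 0% was fixed beforehand, because the lowest signal so classed on that array was 7.66. Negative control spots had medians of 1.61 and 1.75 on the pioglitazone and vehicle arrays. One of 153 of them reached 16.2 on the pioglitazone array and was itself called well above background, a signal above that of Cftr. The highest on the vehicle array was 4.45, below that of Cftr. At this signal a Cftr difference within 2 times its technical error, 1.05, cannot be told from 0, and the vehicle signal lay below the detection limit.

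Other genes of the apical and basolateral membrane differed little where they were bright. Of 11 measured genes in this list, 0 were past 1.5-fold and the median was -0.03. The sodium-bicarbonate cotransporter Slc4a7 was at -0.34, the volume-regulated anion channel subunit Lrrc8a at -0.31 and Clca1, a secreted modulator of calcium-activated chloride channels, at -0.25, each within 2 times its error. The sodium pump subunit Atp1b1 was at 0.07. The chloride/bicarbonate exchanger Slc4a2, which can load chloride beside NKCC1, was at 0.14.

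In the same list 3 of 15 genes with a probe were well above background on the pioglitazone array only. For the vehicle array only, the count was 0. Among all 13435 named genes, 259 were seen only on the pioglitazone array and 115 only on the vehicle array. Whether the list differs from all named genes in this respect was not tested. Clca2, a relative of Clca1, gave 34.9 with pioglitazone and 2.68 with vehicle, at least 4.30-fold higher. Ano1, the TMEM16A channel, gave 10.9 and 5.03, at least 1.34-fold higher. Best1, a bestrophin, gave 14.8 and 8.17. Its vehicle signal was above 7.66, the lowest signal well above background on that array, so 1.71-fold is its measured scaled ratio and not a bound. The bounds and the Best1 ratio take no account of spot error. The measured differences of Best1 and Ano1 lay within 2 times their technical errors of 0.40 and 0.53. With no filter on dim probes 1 gene of the list was past the call. All were read from 1 spot on each array, Clca2 in the sixth of 10 bands of grid rows and Best1 and Ano1 in the seventh.

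CFTR partners were mostly bright, and 14 of 19 measured genes were positive with a median of 0.10, against 56.1% of all measured genes positive. None was past 1.5-fold. The scaffold Pdzk1 was at 0.21 and the scaffold Nherf1, which tethers CFTR to ezrin, at 0.21, while the chaperone Hsp90aa1 was at -0.32. Catalytic subunits of protein kinase A, Prkaca and Prkacb, were at 0.15 and -0.10. Apart from Hsp90aa1, every value in this list was between -0.16 and 0.21.

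Regulators and relatives of NKCC1 were close to 0. The kinases Wnk1, Wnk4, Stk39 and Oxsr1, which control cation-chloride cotransport by phosphorylation, were at 0.13, 0.009, -0.01 and -0.17. Of 13 measured genes in this list none was past 1.5-fold and the median was 0.01. The thiazide-sensitive Slc12a3 was at 0.26.

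Purinergic input through P2Y2 was represented by P2ry2, which gave signals of 192 with pioglitazone and 227 with vehicle. Its difference of -0.32, 1.25-fold higher in vehicle, was the lowest of the 6 genes and within 2 times its error of 0.21, and 12.8% of all measured genes differed by at least as much. Across 6 scalings it ran from -0.34 to -0.24. The spot lay at row 512 in the last of 10 bands, whose median difference was 0.01.

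Other purinergic genes went both ways, with a median of 0.04 over 26 measured genes, 16 of them positive. One was past 1.5-fold, the adenosine receptor Adora1, with signals of 18.4 with pioglitazone and 27 with vehicle and a difference of -0.64. It lost that status with median scaling, without scaling and with normexp correction. The ADP receptors P2ry1 and P2ry12 were at -0.54 and -0.49, both over 2 times their error but under 1.5-fold. P2ry1 was dim, with signals of 17.4 with pioglitazone and 23.9 with vehicle. The UDP receptor P2ry6 was at -0.30 and the nucleotide receptor P2ry4 at 0.35, each within 2 times its error. P2ry4 was dim as well, at 21.3 with pioglitazone and 15.8 with vehicle. Of the enzymes that break down nucleotides, the ecto-5'-nucleotidase Nt5e gave 896 with pioglitazone and 631 with vehicle. Its difference of 0.42 exceeded 2 times its error but not 1.5-fold. The ATP-hydrolysing Entpd1 and Entpd2 were at -0.11 and 0.07. Downstream, the inositol trisphosphate receptors Itpr1, Itpr2 and Itpr3 were at 0.23, 0.17 and 0.04.

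The endosomal exchangers differed little. Clcn3 gave signals of 474 with pioglitazone and 442 with vehicle, and the scaled difference was 0.02. Clcn5 gave 161 with pioglitazone and 142 with vehicle, a difference of 0.10. The difference was 0.09 of a technical error for Clcn3 and 0.481 of it for Clcn5. Differences at least as large were found in 91.9% of measured genes for Clcn3 and in 58.8% for Clcn5.

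Genes that work beside ClC-5 in proximal endocytosis were near 0 too. Of 14 measured genes none was past 1.5-fold and the median was 0.01. The receptors Lrp2 and Cubn were at 0.03 and 0.23, the phosphatase Ocrl, mutated in Lowe syndrome and in some Dent disease, at -0.17 and the ubiquitin ligase Nedd4 at -0.22. The 8 markers of the proximal tubule, where most renal ClC-5 is found, had a median difference of 0.09 and summed scaled signals of 435 with pioglitazone and 414 with vehicle, and their part in the values of Clcn5 and Kcnq1 was not tested. The 6 intercalated cell markers had a median difference of 0.23, with sums of 248 and 215.

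**Figure D3:**
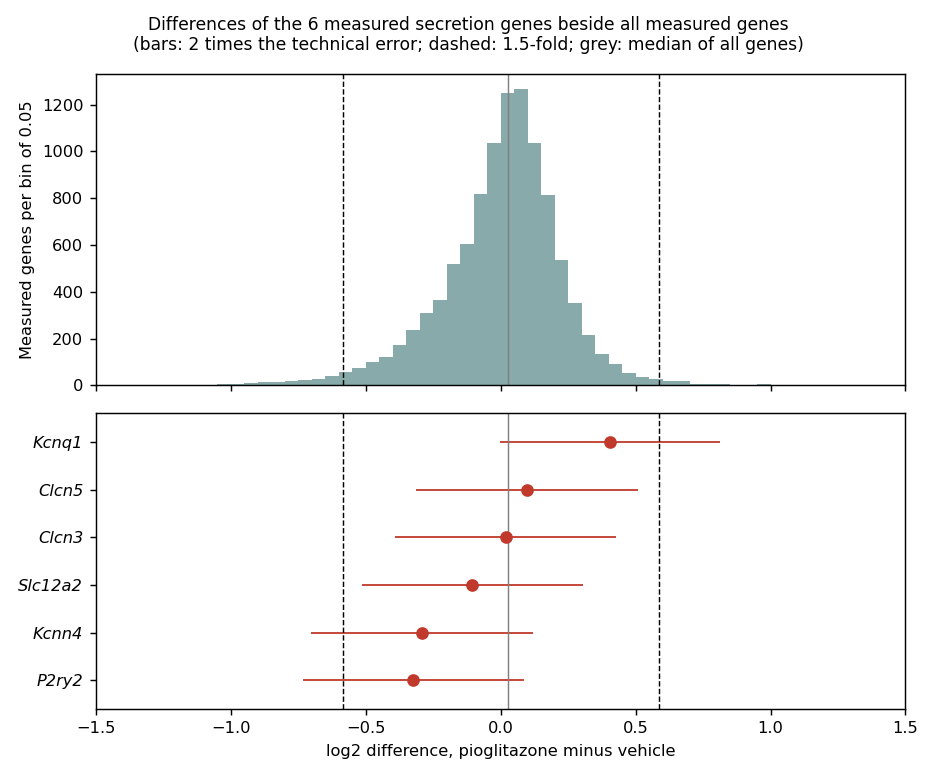
Upper panel, number of measured genes per bin of 0.05 in the log2 difference, pioglitazone minus vehicle. Lower panel, the 6 measured secretion genes with bars of 2 times the technical error, dashed lines at 1.5-fold and a grey line at the median of all genes (0.03). All 6 points lie between -0.32 and 0.40, inside the dashed lines, and every bar reaches 0.

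Among the other CLC genes, their subunits and the chloride channel regulator gene Clns1a, 8 of 9 measured genes were positive, with a median of 0.09 and none past 1.5-fold. The subunit gene Bsnd was at 0.27, with signals of 1720 with pioglitazone and 1350 with vehicle. Clcn1, the muscle channel, was seen with pioglitazone alone at 18.1 against 7.69, from 1 spot on each array. The vehicle signal was just above 7.66, the lowest signal well above background on that array. The 2.22-fold difference is thus the measured scaled ratio and not a bound, with a technical error of 0.39. In the Slc26 family, 3 genes were measured and all were positive: the sulfate transporter Slc26a1 at 0.31, pendrin (Slc26a4) at 0.25 and Slc26a7 at 0.10. Slc26a2, Slc26a3 and Slc26a5 were not well above background on either array.

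**Figure D4:**
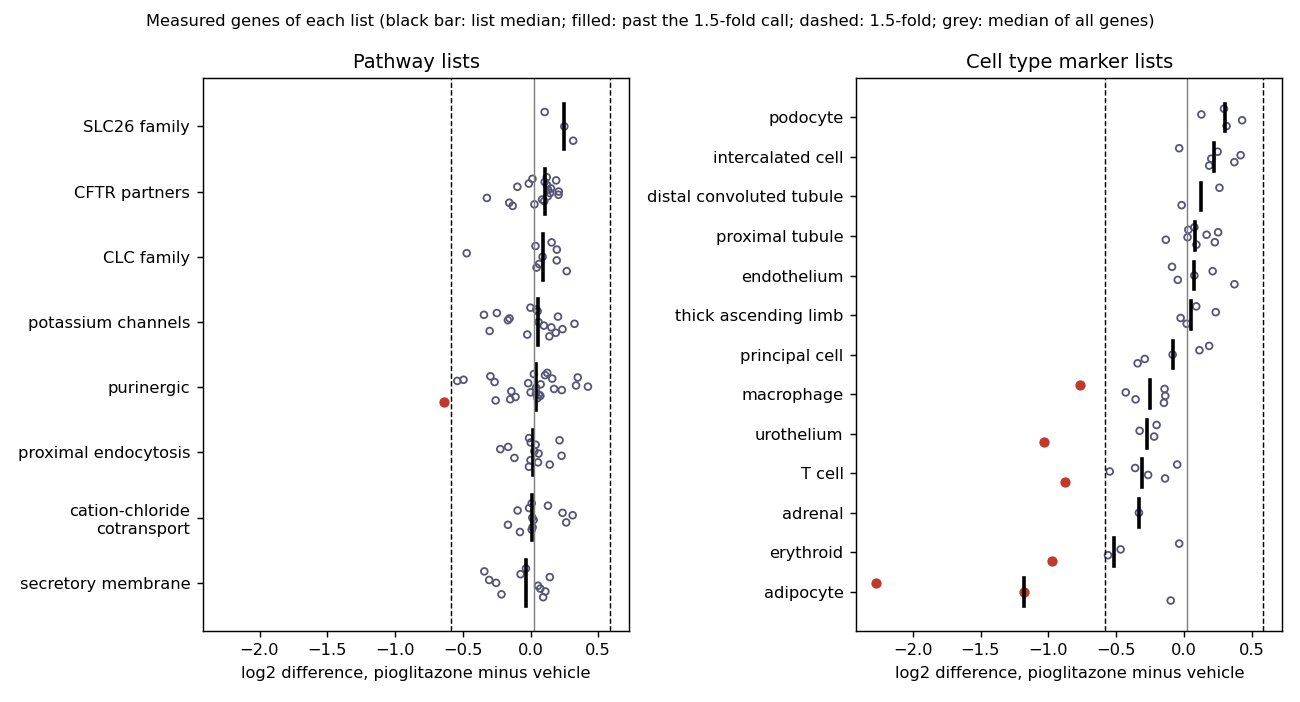
The log2 difference, pioglitazone minus vehicle, of each measured gene in 8 pathway lists (left) and 13 cell type marker lists (right), with a black bar at each list's median, filled points past the 1.5-fold call, dashed lines at 1.5-fold and a grey line at the median of all genes. In the pathway lists 1 gene is filled (Adora1), and the markers of principal cells, T cells, macrophages, erythroid cells, urothelium, adrenal and adipocytes have medians to the left of 0.

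Over the 8 pathway lists together, without the secretion genes themselves, 0 of 112 measured genes were higher and 1 was lower by the 1.5-fold call, where 0.754% and 1.76% of all measured genes were. The median was 0.05 and 73 of the 112 were positive. Over all measured genes the calls comprised 79 higher and 184 lower, a higher share of 30.0%, which became 52.6% without scaling, 45.2% with median scaling and 17.5% with normexp correction. Some pathway genes belong to cell types of the nephron that had positive medians, and their part was not tested.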

How the data were processed

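Total RNA pools of each group were labelled with Cy3 and hybridised to 1-colour Agilent arrays, 1 array per group. The deposited values are spot intensity from Agilent Feature Extraction 10.7.3.1, per the submitters' processing notes, already corrected by that software for background and for trends across the array. The deposited value table equals the processed intensity at all spots. Software flags for spots well above background and for outliers were used as deposited, and the annotation build in the headers is rn4.

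The 149 spots that either array's software called outliers were left out, intensities were put on a log2 scale, the 75th percentile of each array was subtracted and replicate spots were averaged. Accessions without versions were named through RefSeq (GRCr8), which named 16959 of 40998 probes. A gene took its brightest probe and was measured when over 0.5 of its spots were well above background on both arrays. A call needed 1.5-fold and over 2 times the technical error. Steps were tested on simulated data. The members, lists and thresholds were chosen with earlier results of these data known. Named genes were all 8 members and the genes past the call or with the 3 largest differences in a list. Genes seen on 1 array alone were named when at least 1.5-fold apart. That fold was a bound, or the measured ratio where the other array's signal exceeded the lowest signal well above background. Further list members were chosen for their role after their values were seen. Most list genes are given only in counts and medians, and some are not reported here. Alternatives were other scalings, normexp correction, flagged spots kept, a mean over probes, no filter on dim probes, other thresholds and centred grid bands. Python 3.11.15, R 4.3.3 and limma 3.58.1 were used. The precision is limited by the number of arrays: 1 array per group gives no spread between samples.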

Additional observations from a re-analysis of the deposited data

How the results depend on the processing

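Over 10 alternative settings, the 60 values of the 6 measured secretion genes kept their sign and moved by less than a technical error, and no secretion gene was past the call under any of them or under the 2 other thresholds. Kcnq1 had its lowest value, 0.24, with normexp correction. Their median ran from -0.11 with a mean over probes to 0.04 without scaling. Over all genes, 79 were higher and 184 lower, and these counts became 130 and 117 without scaling, 10 and 47 with normexp correction, 128 and 229 when dim probes were kept, and 17 and 31 at 2-fold. The cause was not tested. Centring the grid bands, chosen after seeing the data, moved a member by at most 0.0175. Normexp was run on median signals. Of 189 list medians under alternatives 1 moved by over the median technical error, and of 231 list counts 12 changed by over 1.5 times. Cftr and the genes seen on 1 array are limited by signal over background. No paired analysis was possible because there is only 1 array for pioglitazone and 1 for vehicle.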
